A study of Mus musculus with 12 samples.

Results

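Hippocampal gene expression was compared between control and mutant mice 1 h after kainate, on 6 of the 12 arrays of the series. These were the 3 arrays of control animals and the 3 arrays of mutant animals that had received kainate, and every probe set with a value over 4 (log2) in at least 3 of the 12 arrays was compared, which were 6334 of 12411. The labels call the genotypes control and mutant, and per the series title the mutants lack CREB and CREM. The 6 arrays of saline-treated control and mutant animals served for comparison. All animals were littermates of both sexes aged 5 to 6 weeks, were caged singly and handled for 5 days, and were given 20 mg/kg kainate or saline by intraperitoneal injection. Each array carried the hippocampal RNA of 3 pooled animals, so n = 3 arrays per group stands for pools and not for single mice. The alleles, the driver and cell type of any recombination, the strain and what the replicate numbers mean were not found in the labels. In a bulk sample, fewer cells of a type and less RNA per cell cannot be told apart.

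CREB and CREM are related leucine zipper transcription factors that bind the cAMP response element (CRE) in promoters. Calcium entry and cAMP activate kinases that phosphorylate CREB, which then recruits the coactivators CBP and p300. Kainate is an agonist of ionotropic glutamate receptors and evokes seizures, and the discharge of hippocampal neurons induces immediate early genes, many of which hold CRE or serum response elements in their promoters.

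The targeted genes were examined first. The tested Creb1 probe set read 7.14, 6.97 and 6.83 in the control kainate arrays numbered 1, 2 and 3, and 8.47, 7.64 and 7.82 in the labelled mutant kainate arrays. It was thus higher in every labelled mutant array, by 0.99 (SE 0.229), and by 0.89 with saline, although the difference after kainate did not pass (adjusted p = 0.391, limma). Crem was under the level needed for testing, with 3.05, 3.07 and 3.35 in control and 2.94, 3.00 and 3.10 in labelled mutant arrays. The position of these probe sets relative to any deletion is unknown here, so neither checks the genotype, and these arrays are referred to as labelled mutant. Among markers of hippocampal principal neurons, Slc17a7 is the vesicular glutamate transporter of these cells. Its control and labelled mutant means were 10.73 and 10.67 after kainate, a small difference but without overlap. Those of Dkk3 were 10.20 and 10.23, with overlap. Bcl11b, Fibcd1 and Neurod2 of the same list were also lower without overlap, as described further on. Array medians lay between 3.84 and 4.07. The arrays numbered 1 stood apart from the others in every group, and same-numbered arrays deviated together, so each difference is also given within its number.

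After kainate, 4 probe sets differed between genotypes in the model of 1 mean per group over all 12 arrays (adjusted p under 0.05, limma), which is 0.0632% of those tested. Spty2d1 and Nbdy were lower in the labelled mutant arrays, and Dusp4 and Ccdc86 were higher, each direction with 0.0316% of the probe sets. With the replicate number as a block the same 4 passed with Tspyl3, Tmem200a and Zcchc18, all of them lower, giving 7 probe sets (0.111%), 5 of them lower (0.0789%) and 2 higher (0.0316%). At an unadjusted p under 0.05 there were 296 without and 869 with the block. With the arrays numbered 2 and 3 alone 12 passed, among them all 4 of the first count and 6 of the 7 found with the block. Single arrays mattered for the count of 4, which fell to 1, Spty2d1, without control kainate array 2 or labelled mutant kainate array 3, and to 2 without control kainate array 1 or 3 or labelled mutant kainate array 2. With the block the count was 12 without labelled mutant kainate array 1, and 7 without any other kainate array. When the 6 kainate arrays were fitted alone none passed without or with the block, against 219 and 1258 at an unadjusted p under 0.05 (limma), and Spty2d1 had an adjusted p of 0.186.

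Spty2d1 encodes a histone chaperone that acts at transcribed chromatin. Its probe set 109387_f_at read 8.37, 8.60 and 8.03 in the control kainate arrays, and 6.43, 6.06 and 6.11 in the labelled mutant kainate arrays. Every labelled mutant array lay far below every control array, with a group mean of 8.34 ± 0.285 (SD, n = 3) against 6.20 ± 0.198 (SD, n = 3). The difference of -2.14 (SE 0.193), or 4.39-fold, was the largest of all probe sets that passed, with an adjusted p of 0.00273 (limma), and of 0.000148 with the block. With saline the values were 6.65, 6.79 and 6.25 in control and 5.61, 5.89 and 5.55 in labelled mutant arrays, again with no overlap, and the difference was -0.88. In control animals Spty2d1 rose by 1.77 with kainate (adjusted p = 0.00399, limma, where 0.158% of probe sets passed), while the labelled mutant arrays differed by 0.52 (adjusted p = 0.712, limma). These responses share the kainate arrays with the genotype comparison and are not separate evidence. The change of the genotype difference with kainate was -1.26 (SE 0.273), with an unadjusted p of 0.000875 and an adjusted p of 1 in limma's interaction test, or 0.281 with the block. The suffix of this probe set marks probes that are shared within a sequence family, so the signal may include related transcripts. A second tested probe set of the gene, 109388_r_at, read 4.71, 4.98 and 5.12 in control and 4.34, 4.74 and 4.79 in labelled mutant arrays, which overlapped, with a difference of -0.32. The other one, 110960_at, was under the level needed for testing, and it read 5.22, 3.30 and 3.35 in control against 3.10, 3.09 and 3.17 in labelled mutant arrays, where control array 1 alone was high.

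Dusp4, a nuclear phosphatase that switches off MAP kinases, was higher in the labelled mutant arrays after kainate. Probe set 105871_at read 6.33, 6.30 and 6.42 in control and 7.46, 7.98 and 7.49 in labelled mutant arrays, without overlap. The difference of 1.30 (SE 0.152) was 2.46-fold, with an adjusted p of 0.0108 (limma). With saline the genotypes differed by 0.19, with control values of 5.95, 6.28 and 6.03 and labelled mutant values of 6.20, 6.34 and 6.27. Dusp4 rose by 1.37 with kainate in labelled mutant animals (adjusted p = 0.00383, limma, where 0.174% of probe sets passed) and differed by 0.26 in controls. As for Spty2d1, these responses share the kainate arrays with the genotype comparison and are not separate evidence. The interaction was 1.11 (SE 0.216), at an unadjusted p of 0.000372 and an adjusted p of 1 (limma), or 0.281 with the block. Its second probe set, 111715_at, did not show the difference. That set read 4.94, 5.05 and 5.20 in control and 4.85, 5.01 and 5.24 in labelled mutant arrays, a difference of -0.03. Dusp4 missed the threshold without control kainate array 1, 2 or 3 or labelled mutant kainate array 3, with adjusted p-values of 0.0523 to 0.0973 (limma).

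Ccdc86, which encodes a nucleolar coiled-coil protein, had the same pattern. The control kainate arrays read 5.43, 5.61 and 5.53, and the labelled mutant kainate arrays 6.47, 6.74 and 6.90. All 3 labelled mutant values were above all control values, by 1.18 (SE 0.138) or 2.26-fold, with an adjusted p of 0.0108 (limma). The saline arrays overlapped, at 5.35, 5.59 and 5.68 in control and 5.87, 5.77 and 5.67 in labelled mutant animals. Kainate against saline was 0.94 for Ccdc86 in the labelled mutant group (adjusted p = 0.0247, limma, where 0.174% of probe sets passed), against -0.02 in controls. The kainate arrays are again shared with the genotype comparison, so this is not separate evidence. The interaction of 0.95 had an unadjusted p of 0.000582 and an adjusted p of 1 (limma), or 0.545 with the block. The genotype difference of Ccdc86 missed the threshold without any one of the kainate arrays other than labelled mutant array 1, with adjusted p-values of 0.0591 to 0.0911 (limma). No probe set passed the interaction test over all genes, without or with the block, and at an unadjusted p under 0.05 there were 147 without and 566 with the block (limma). A larger difference after kainate than with saline was therefore not shown for any of these 3 genes.

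Nbdy and Tmem200a were lower in labelled mutant arrays with either treatment. Nbdy encodes a microprotein that dissociates P-bodies, the cytoplasmic granules of messenger RNA decay. It read 8.74, 8.94 and 9.06 in control and 8.0, 8.07 and 8.11 in labelled mutant kainate arrays, which lay close together and apart from the controls. The difference was -0.86 (SE 0.111) or 1.81-fold, with an adjusted p of 0.0196 (limma), which became 0.0548 after centring each array on its median. Without 1 array it passed in 4 of 12 fits, those without control kainate array 1 or a labelled mutant saline array, and its adjusted p reached 0.155 without control kainate array 2 (limma). With saline the difference was -0.65, which passed with the block (adjusted p = 0.0423, limma). For Tmem200a, which encodes a membrane protein, the control kainate arrays read 7.04, 7.07 and 6.86 and the labelled mutant ones 6.16, 6.30 and 6.09. This separation of -0.81 (SE 0.12) had an adjusted p of 0.0503 without the block and 0.0297 with it (limma), and with the block it missed the threshold whichever of the 6 kainate arrays was left out. The saline difference of Tmem200a was -0.86, with control values of 7.04, 7.28 and 7.21 and labelled mutant values of 6.43, 6.22 and 6.31.

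Tspyl3 and Zcchc18, like Tmem200a, passed with the block alone. Tspyl3 belongs to a family related to nucleosome assembly proteins, and it read 7.81, 7.62 and 7.47 in control against 6.92, 6.43 and 6.18 in labelled mutant kainate arrays. The array numbered 1 was highest in both groups, and the differences within numbers were -0.89, -1.19 and -1.29. The mean of -1.12 had an adjusted p of 0.285 without and 0.00366 with the block (limma). With saline the difference of Tspyl3 was -1.41, with 8.0, 7.60 and 7.59 in control and 6.63, 6.40 and 5.94 in labelled mutant arrays. Zcchc18, a zinc knuckle protein, read 10.66, 11.45 and 11.46 in control and 9.90, 10.81 and 10.94 in labelled mutant kainate arrays, which overlapped because the array numbered 1 was low in both groups. Within numbers the labelled mutant array was lower each time, with differences of -0.75, -0.64 and -0.52. Its adjusted p moved from 0.914 to 0.00994 with the block (limma), and was 0.0588 without control kainate array 1 and 0.0629 without labelled mutant kainate array 2. The second Zcchc18 probe set differed by -0.37 and did not pass, and it was higher in labelled mutant array 1 by 0.09.

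**Figure D1:**
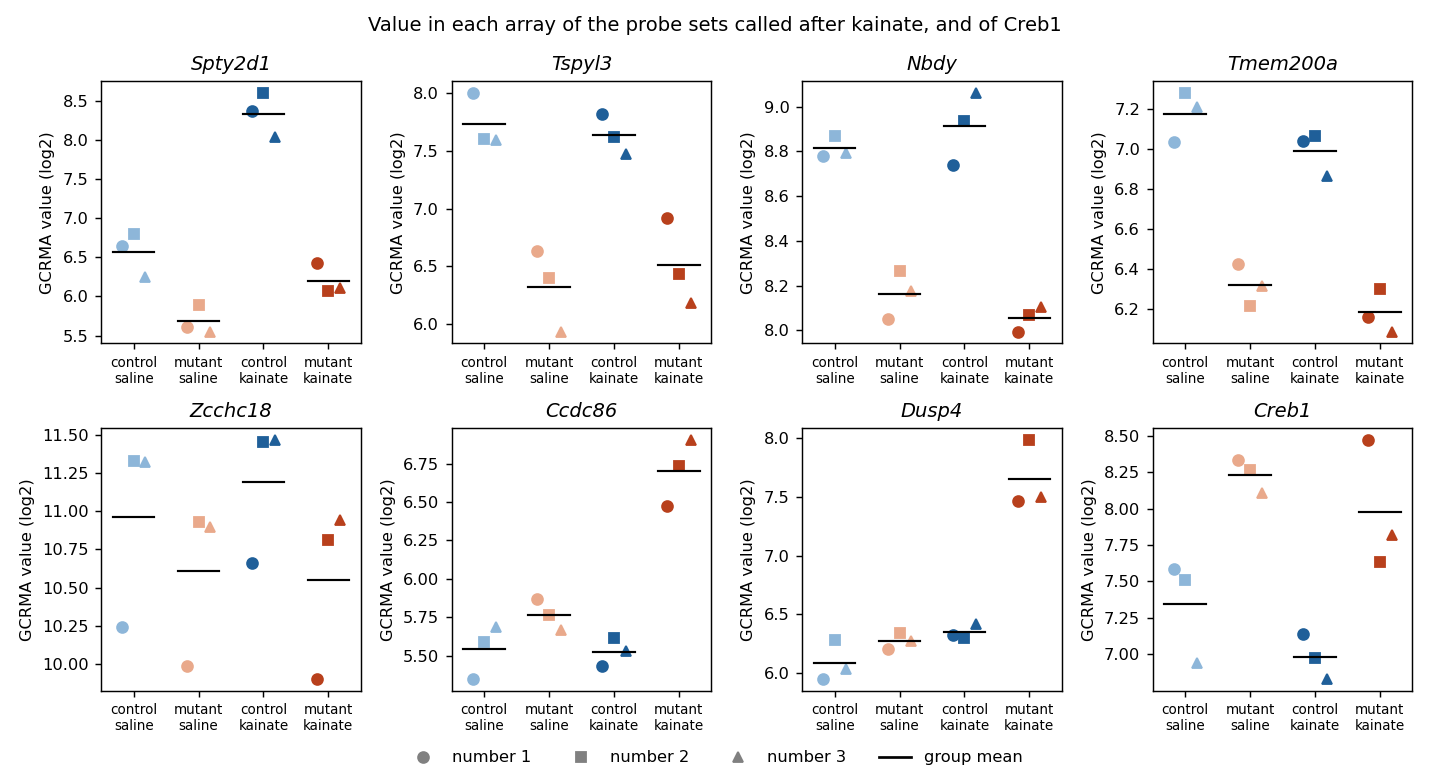
Log2 values of the 7 probe sets that passed after kainate, without or with the replicate block, and of Creb1, in each of the 12 arrays. Points are arrays by number, and horizontal bars are group means; the kainate groups of Spty2d1, Dusp4, Ccdc86, Nbdy, Tspyl3 and Tmem200a do not overlap, while those of Zcchc18 do.

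Large differences were not limited to probe sets that passed. The difference was over 1 in all 3 numbers for 4 probe sets, those of Hspb6, Mmab, Dusp4 and Ccdc86, and under -1 in all 3 numbers for Spty2d1 alone. At a size of 0.5 in all 3 numbers there were 25 higher and 24 lower. The SD of all within-number differences was 0.322, 0.286 and 0.309 for numbers 1, 2 and 3. Across the 6334 probe sets the differences of numbers 1 and 2 correlated with r = 0.341, those of 1 and 3 with 0.399 and those of 2 and 3 with 0.288. These values are descriptions across probe sets, which are not independent of each other.

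**Figure D2:**
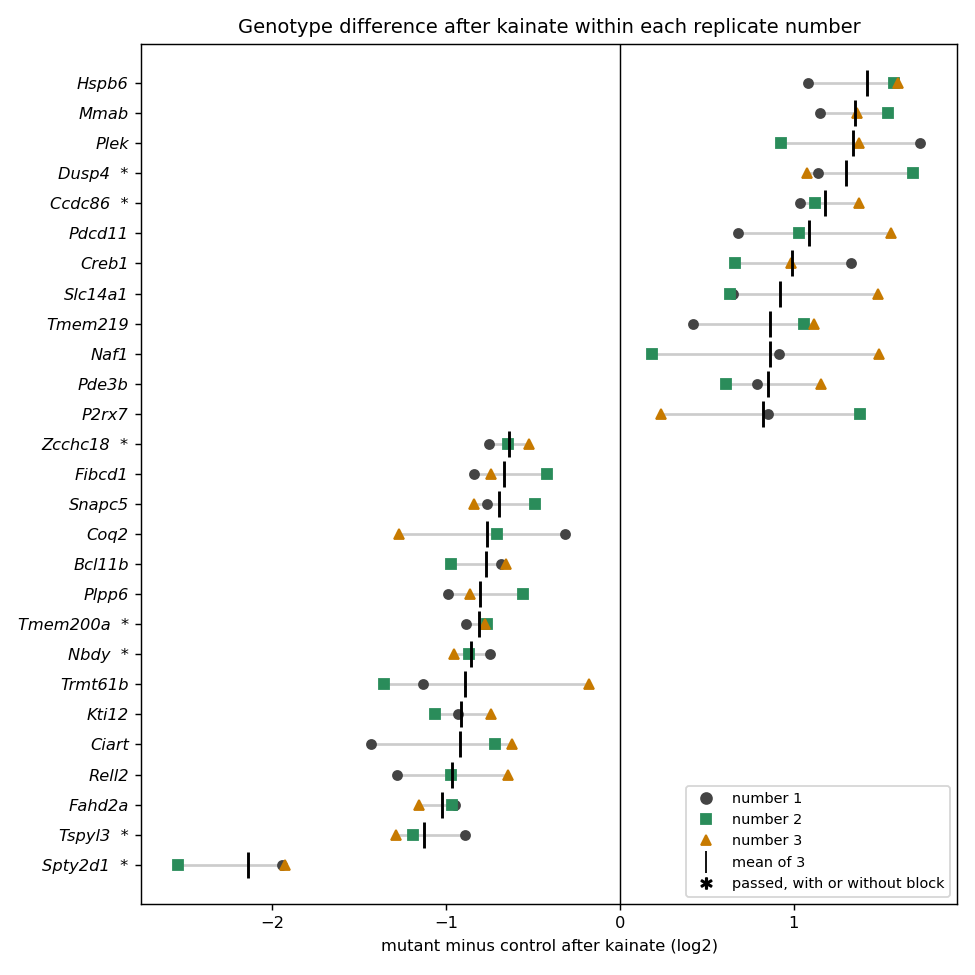
Labelled mutant minus control after kainate (log2) within each replicate number, with 1 row for each probe set that passed or was named by size. Points are numbers 1, 2 and 3, vertical ticks are their means, and an asterisk marks those that passed without or with the block. Spty2d1 has the lowest mean, at -1.94, -2.54 and -1.92 in numbers 1, 2 and 3.

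The 2 groups of kainate arrays did not overlap at 679 probe sets, or 10.7% of those tested, of which 196 (3.09%) were higher and 483 (7.63%) lower in the labelled mutant arrays. The lean toward lower values depended on the scaling. Of the probe sets that did not overlap, 28.9% were higher as deposited, 44.8% after quantile normalization and 72.6% after centring each array on its median, which moved the median of all differences from -0.03 to 0.07. The lean also differed with the level. As deposited, among the 3020 with a mean over 6, 135 were higher and 175 lower, while among the 3314 with a mean of 6 or less 61 were higher and 308 lower. After quantile normalization the lower ones were 182 and 127 in these classes, so that most were not dim. No direction for the transcriptome as a whole is therefore given.

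Of the probe sets that did not pass, 57 had 1 symbol, an unadjusted p under 0.01, no overlap between groups and the same sign in all numbers. The 10 most different on each side are described. Creb1, the targeted gene described above, was 1 of the 10 that were higher and is counted with them below. Among those higher in the labelled mutant arrays, Hspb6, a small heat shock protein, had the largest value. It read 5.24, 5.08 and 5.09 in control and 6.32, 6.66 and 6.69 in labelled mutant arrays, a difference of 1.42 (adjusted p = 0.278, and 0.0545 with the block, limma). Mmab, an enzyme of cobalamin metabolism whose gene shares its promoter with a sterol pathway gene, read 4.57, 4.51 and 4.20 against 5.72, 6.05 and 5.56. Plek, the kinase substrate pleckstrin of blood-derived cells, read 4.75, 4.67 and 4.60 against 6.47, 5.59 and 5.97. For both the groups were well apart, with differences of 1.35 and 1.34. Pdcd11 and Naf1, which act in the making of ribosomes and of small nucleolar ribonucleoproteins, differed by 1.09 and 0.86. Pdcd11 read 6.25, 6.32 and 5.29 in control and 6.93, 7.35 and 6.85 in labelled mutant arrays, and the low control array 3 gave number 3 the largest difference. Naf1 showed the same low control array 3, with 5.77, 6.09 and 5.17 against 6.68, 6.28 and 6.65. Slc14a1, a urea transporter, differed by 0.92 on a probe set with shared probes, and by 0.39 on a second probe set. Tmem219, a membrane receptor, differed by 0.86. Pde3b, a phosphodiesterase that degrades cAMP, differed by 0.85 on a probe set with shared probes and by 0.12 and -0.03 on its other tested sets. P2rx7, an ATP-gated channel, differed by 0.82, with 3.82, 3.47 and 3.69 in control and 4.67, 4.85 and 3.92 in labelled mutant arrays. P2rx7 was over 4 in labelled mutant arrays alone and was tested only through them.

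Among those lower, Fahd2a, of the fumarylacetoacetate hydrolase family, read 6.90, 7.17 and 6.99 in control and 5.95, 6.20 and 5.83 in labelled mutant arrays. This difference of -1.02 was even across numbers, at -0.95, -0.96 and -1.16. Ciart, a repressor of the circadian clock, read 7.69, 7.81 and 7.77 in control against 6.26, 7.09 and 7.15, so that the controls lay close together and labelled mutant array 1 was lowest. Its difference was -0.92 after kainate and -0.23 with saline. Kainate against saline was 1.81 for Ciart in controls and 1.11 in labelled mutant arrays. Kti12, a partner of the Elongator complex of transfer RNA modification, read 7.59, 6.92 and 6.85 against 6.66, 5.86 and 6.11. Its difference was -0.91 after kainate and -0.15 with saline, and the adjusted p after kainate with the block was 0.0545 (limma). In limma's interaction test Ciart and Kti12 had unadjusted p-values of 0.0458 and 0.0509. With the block these were 0.0281 and 0.00391 (adjusted p = 0.545 for each, limma). Neither passed without or with the block, so a larger difference after kainate was not shown for them. Bcl11b, a zinc finger transcription factor of projection and granule neurons, read 7.85, 7.87 and 7.60 against 7.16, 6.90 and 6.94. Its difference of -0.77 was accompanied by -0.36 and -0.44 on its other probe sets, whose groups overlapped. Coq2, an enzyme of ubiquinone synthesis, read 8.38, 9.06 and 9.30 in control and 8.07, 8.35 and 8.04 in labelled mutant arrays, and its difference was -0.32 in number 1, -0.71 in number 2 and -1.27 in number 3. Fibcd1, a receptor that marks pyramidal cells, differed by -0.67. Rell2 differed by -0.96, Trmt61b, a mitochondrial transfer RNA methyltransferase, by -0.89, and Plpp6, a lipid phosphatase, by -0.80. Snapc5, a subunit of the complex that starts transcription of small nuclear RNA genes, differed by -0.70. Trmt61b was over 4 in control arrays alone, so it was tested only through the group where it was high.

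The saline values of these 20 probe sets are given as a description, since the saline arrays had entered both the filter and the estimate of spread by which the 20 were chosen. Leaving out Trmt61b and P2rx7, all 18 others had the same sign with saline, 13 of them with a size over 0.5, and 14 had saline groups that were separate in the same direction, where the saline groups of 8.81% of all probe sets did not overlap, 4.48% higher and 4.33% lower. Mmab differed by 1.56 with saline and 1.35 after kainate, Plek by 1.13 and 1.34, and Coq2 by -1.12 and -0.76. Of the 7 that passed after kainate, 3 also passed with saline in the fit with the block (Nbdy, Tmem200a and Tspyl3), where 9 probe sets did so in all (0.142%). Without the block none passed with saline, against 246 at an unadjusted p under 0.05 (limma). Across all 6334 probe sets the mean genotype difference after kainate correlated with that with saline at Pearson's r = 0.305 and Spearman's rho = 0.149, a description across probe sets. Spty2d1, Dusp4 and Ccdc86, of those that passed, lay well away from equal differences, and none of the 7 passed the interaction test.

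**Figure D3:**
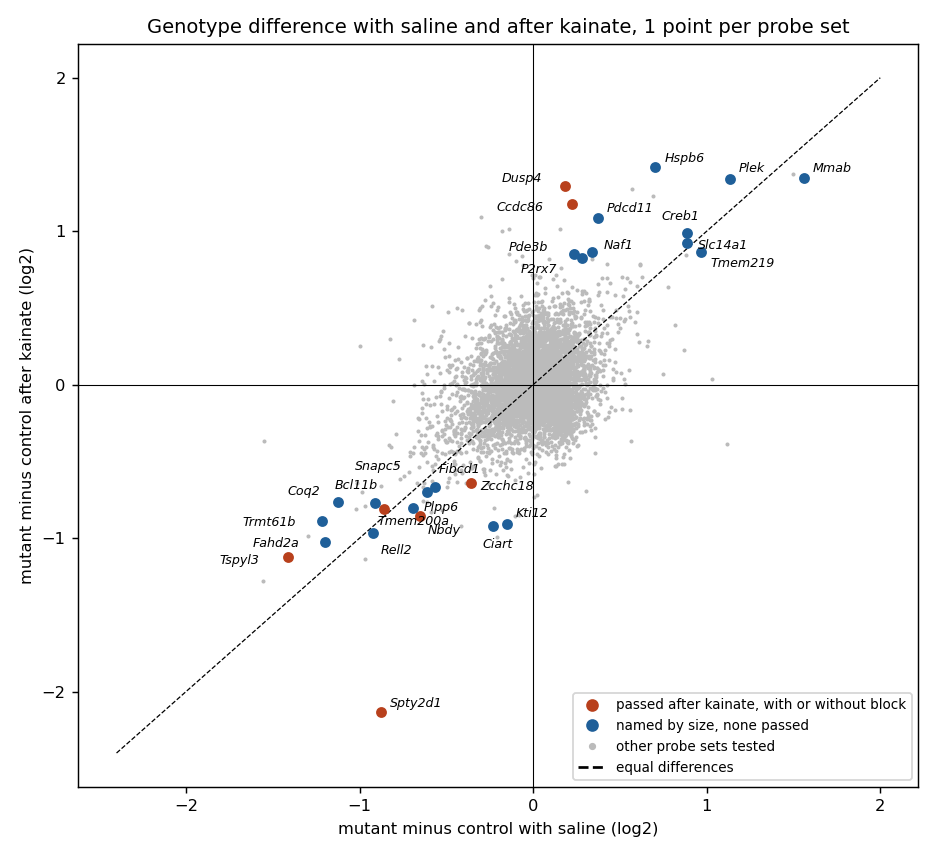
Labelled mutant minus control after kainate against the same difference with saline (log2), 1 point per probe set, with the line of equal differences. Tspyl3, Fahd2a, Mmab and Creb1 lie near the line, and Dusp4 at 0.19 with saline and 1.30 after kainate lies away from it.

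Immediate early transcription factors and, as a separate list with some shared members, known CREB target genes were examined, with 1 probe set per gene. Of all 4617 genes so represented, 46.7% were above 0 and the median difference was -0.01. The lists were chosen with earlier results of these data known, so a member that passed is not evidence about its list. Of 34 immediate early transcription factors listed, 9 were tested and none passed. They had a median of -0.27, and 6 of 9 were below 0. Within numbers the medians were -0.33, -0.19 and -0.19, and with saline the median was -0.21. Nr4a2, an orphan nuclear receptor, read 5.61, 5.36 and 5.47 in control and 4.89, 4.83 and 4.82 in labelled mutant arrays, without overlap, for a difference of -0.63 (adjusted p = 0.438, limma). Csrnp1, a nuclear protein induced by growth signals, read 7.63, 7.59 and 7.52 against 6.59, 7.40 and 7.0, where labelled mutant array 1 was lowest, for a difference of -0.59 (adjusted p = 0.903, limma). Kainate against saline was 2.34 for Csrnp1 in controls and 2.04 in labelled mutant arrays. Srf, the serum response factor, also did not overlap and differed by -0.44, where 7.63% of all probe sets were lower without overlap. Fosl2, a partner of Jun, differed by -0.19 with overlap. Klf6, Fbxo33, an F-box protein kept in this list, and Maff were above 0, at 0.08, 0.20 and 0.20. Of the CREB target genes listed, 7 were tested and none passed, with 5 below 0 and a median of -0.11. Nr4a2 and Nr4a3, at -0.63 and -0.31, are members of both lists, and Bcl2, an inhibitor of apoptosis, differed by 0.18.

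The coactivators of CREB were close to 0. Of 12 tested members of the CREB family and its coactivators none passed, and after Creb1 the next by p was Atf6, a stress-activated relative, at -0.39, whose groups overlapped. Without control kainate array 2 the Atf6 difference was -0.13, and without control kainate array 1 it was -0.62. The coactivators Crebbp, Crtc1, Crtc2 and Crtc3 lay at 0.03, -0.09, 0.02 and 0.02, and Ep300 at -0.20. Among 16 genes of cAMP signalling, 8 were above and 8 below 0 and none passed. Adcy1, a calcium-stimulated adenylyl cyclase, read 10.64, 10.81 and 10.59 in control and 10.43, 10.55 and 10.45 in labelled mutant arrays, a narrow separation of -0.21. Akap11, an anchor of protein kinase A, differed by -0.31.

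Of 17 feedback inhibitors of kinase signalling, Dusp4 passed, against 0.0632% of all probe sets, 9 were above 0 and the median was 0.01. Rgs4, which limits G protein signals, read 10.70, 10.37 and 10.36 in control and 11.04, 10.98 and 10.96 in labelled mutant arrays. The groups did not overlap, with 0.52 after kainate (adjusted p = 0.285, limma) and 0.32 with saline. Dusp5, a phosphatase of the same family as Dusp4, differed by 0.34 without overlap, where 3.09% of all probe sets were higher without overlap. Dusp6, Dusp8, Dusp14 and Dusp7 lay between -0.01 and 0.03. Of 16 activity-regulated effectors, Ccdc86 and Spty2d1 passed, in opposite directions, where the same 0.0632% of all probe sets did. Since the list was chosen with earlier results known, this count is not read as a result about the list. Ccdc86 differed by -0.02 with kainate in controls. The list median was -0.03, which turned to 0.06 after centring. Homer1, a synaptic scaffold, differed by -0.14, Nptx1, a secreted pentraxin, by -0.07, and Nrn1, a membrane-anchored neurite growth protein, by -0.05. These effectors are induced by activity in hippocampal neurons, and their kainate groups overlapped.

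Among 22 genes of voltage-gated and related ion channels none passed, 14 were below 0 and the median was -0.09, but after centring each array on its median 12 were above 0. Without overlap 7 were lower and 1 was higher, where 7.63% and 3.09% of all probe sets were. Kcna1, a potassium channel of axons, read 7.54, 7.14 and 7.23 in control and 6.71, 7.03 and 6.68 in labelled mutant arrays, a difference of -0.50. Kcnj9, an inward rectifier, differed by -0.29. Of 18 synaptic vesicle genes none passed and 15 were below 0, with a median of -0.10, but after centring each array on its median 9 were above 0. Unc13a and Vamp1, which act in vesicle priming and fusion, differed by -0.42 and -0.38. Of 8 glutamate and GABA receptor genes none passed, and Grm5, a metabotropic receptor, differed by -0.52 with overlap, and by -0.28 without control kainate array 1.

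Of 13 genes of sterol synthesis and uptake none passed and 9 were below 0, with a median of -0.18 after kainate and -0.27 with saline. The sterol enzymes Cyp51 and Sc5d lay at -0.32 and -0.22, each without overlap, where 7.63% of all probe sets were lower without overlap. Idi1 and Insig1, at -0.32 and -0.35, overlapped. The list's extremes were Coq2 and Mmab, of neighbouring pathways, described above. All 4 tested genes of apoptosis and the p53 response were above 0, with a median of 0.20, and none passed. Trp53inp1, a stress-induced nuclear protein, differed by 0.48 and Bcl2 by 0.18, both without overlap, where 3.09% of all probe sets were higher without overlap. The Trp53inp1 value is that of probe set 108581_at, and the other probe sets of this gene are not described here. Of 8 genes of heat shock and folding stress none passed, and Dnajb4, a cochaperone, read 9.14, 8.97 and 8.84 in control against 8.37, 8.51 and 8.50, a difference of -0.52 (adjusted p = 0.285, limma). Of 36 histone and chromatin modifiers Spty2d1 passed (0.0632% of all probe sets did), with Tspyl3 when the block was used (0.111%), and the median was -0.02, or 0.07 after centring.

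Some markers of other cells had kainate values that did not overlap between genotypes, although none passed, and their part in the results was not tested. Of 34 microglia markers listed 7 were tested, 6 were above 0 and the median was 0.65 after kainate and 0.56 with saline, and none passed. The summed level of the list (linear scale) was 641 to 673 in control and 855 to 983 in labelled mutant kainate arrays. Tgfbr1 and Mertk, the brightest tested members, add the most to this sum. Their control means were 7.43 and 7.55, and their labelled mutant means 8.22 and 7.48, so the sum does not describe the list evenly. Plek, Tgfbr1, Olfml3 and Siglech were higher without overlap, at 1.34, 0.79, 0.65 and 0.67, where 3.09% of all probe sets were. Tgfbr1, a receptor for transforming growth factor, read 7.53, 7.36 and 7.40 against 8.64, 8.02 and 7.99. In contrast Tmem119, P2ry13 and Mertk, at 0.02, 0.16 and -0.06, overlapped, and Gpr34 was under the level needed for testing. The median stayed at 0.63 after quantile normalization and was 0.74 after centring. Of 14 astrocyte markers tested 10 were above 0, none passed, and the median was 0.17 after kainate and 0.22 with saline. Aqp4, the water channel of astrocyte end feet, read 10.38, 10.50 and 10.28 in control and 10.97, 10.62 and 10.89 in labelled mutant arrays, and Mlc1, a membrane protein of the same end feet, read 9.75, 9.75 and 9.70 against 10.05, 10.16 and 10.09. Both were separate, by 0.44 and 0.37, as was Ednrb by 0.44, where 3.09% of all probe sets were higher without overlap. Aldoc was lower without overlap, at -0.19, where 7.63% were, and Acsbg1, Sox9 and Cbs lay just below 0 with overlap. The summed astrocyte level was 16354 to 17499 in control and 18920 to 20190 in labelled mutant arrays. Slc1a2, the brightest member with means of 13.08 and 13.20 and with overlap, adds the most to this sum. Of 9 principal neuron markers 5 were below 0 and all 5 without overlap, against 7.63% of all probe sets, Bcl11b, Fibcd1, Neurod2, Stxbp6 and Slc17a7, and the summed level was 4815 to 5074 against 4564 to 4623. None passed, and after centring 5 of the 9 were above 0. The median of -0.06, that of Slc17a7, turned to 0.04. Stxbp6 was dim, with means of 4.40 and 4.26, and differed by 0.17 with saline. Of 6 interneuron markers Maf, a transcription factor, differed by 0.44 without overlap on 1 of its probe sets and by -0.13 on the other, and no marker of that list passed. Oligodendrocyte, endothelial, choroid plexus and blood markers (8, 7, 4 and 1 tested) had medians of -0.08, 0.10, 0.15 and 0.11 with none passing, and the first of these turned to 0.02 after centring. The 3' minus 5' signal of the Gapdh control probe sets lay between -0.39 and -0.03 in control and between -0.42 and -0.12 in labelled mutant kainate arrays. For actin these ranges were 1.62 to 1.82 and 1.44 to 1.81, and for pyruvate carboxylase 4.82 to 5.41 and 4.94 to 5.42. The ranges of the 2 genotypes overlapped for each control. Pyruvate carboxylase was highest in the kainate arrays numbered 1, at 5.41 in control and 5.42 in labelled mutant.

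**Figure D4:**
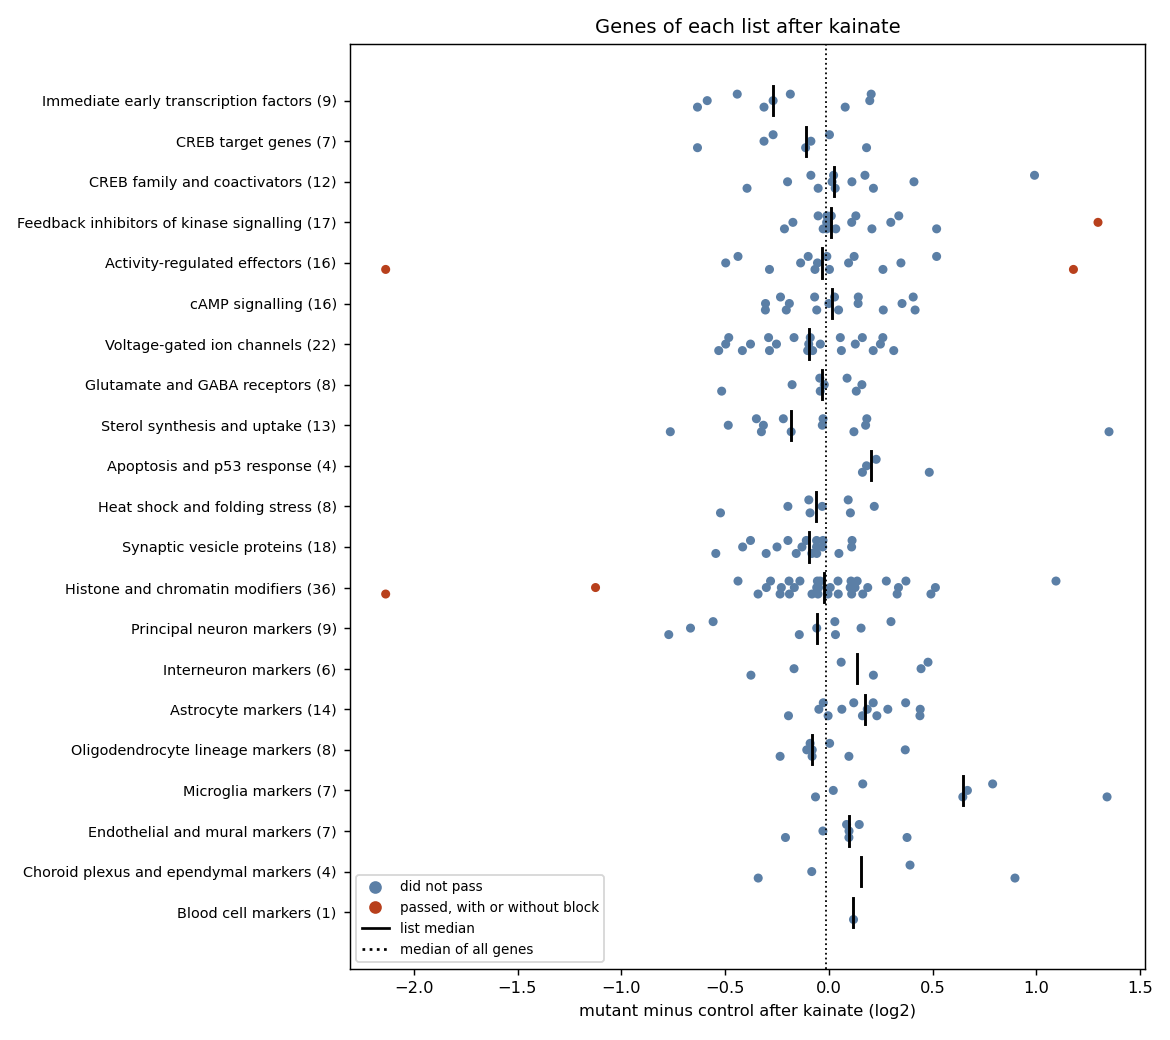
Labelled mutant minus control after kainate (log2) for each tested gene of each list, with 1 point per gene and the list median as a bar. Spty2d1, Ccdc86 and Dusp4 lie far from their own lists, and the microglia list has the highest median, at 0.65.

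The CRE was searched in the 250 bases before the start of each gene, on both strands, since CREB and CREM bind it. The full element TGACGTCA was present in 478 of all 27025 genes of the table (1.77%) and in 116 of 3750 tested genes with a promoter there (3.09%). Among the genes that passed, 6 of 7 had a promoter in the table and 1, Ccdc86, held the element. Among the 20 further genes named by size, 16 had a promoter and 2, Fahd2a and Snapc5, held it. These 3 promoters are shown because they hold the element the mutated factors bind, and that of Spty2d1 because its gene differed most. Each is 120 bases ending at the transcription start, from RefSeq on GRCm38.p6, 5′ to 3′ on the strand of the gene, with the CRE in capitals.
Ccdc86 (minus strand, chr19:10949267-10949386): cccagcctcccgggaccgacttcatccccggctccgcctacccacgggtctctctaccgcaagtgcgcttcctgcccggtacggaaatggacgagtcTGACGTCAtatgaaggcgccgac
Fahd2a (minus strand, chr2:127444566-127444685): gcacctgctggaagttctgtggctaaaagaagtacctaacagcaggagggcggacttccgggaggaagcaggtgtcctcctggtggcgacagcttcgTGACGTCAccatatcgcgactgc
Snapc5 (plus strand, chr9:64179177-64179296): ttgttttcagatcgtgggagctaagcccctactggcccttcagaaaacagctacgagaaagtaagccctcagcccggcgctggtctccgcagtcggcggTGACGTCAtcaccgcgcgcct
Spty2d1 (minus strand, chr7:47008415-47008534): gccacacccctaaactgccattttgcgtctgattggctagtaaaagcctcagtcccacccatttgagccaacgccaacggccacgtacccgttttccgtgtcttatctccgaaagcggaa
The element began 23, 23 and 21 bases before the start in Ccdc86, Fahd2a and Snapc5, where the start of Fahd2a in the promoter table did not match that of its gene model. Of these genes Ccdc86 was higher and Fahd2a and Snapc5 had lower values in the labelled mutant arrays. The Spty2d1 window held no full element. The shorter element TGACG, or its complement CGTCA, which the full one contains, was present in 19.8% of all genes of the table, in 31.5% of the tested genes, in 2 of 6 of those that passed and in 10 of 16 (62.5%) of the others named. These 16 include Trmt61b, which held the shorter element, and P2rx7, which did not, both tested only through the group where they were high. The start in the promoter table also differed from the gene model for other named genes, Coq2, Fibcd1, Hspb6 and Pdcd11 among them. A match is a description of the sequence, and none of these arrays measured binding.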

How the data were processed

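The deposited values were log2 expression values, 1 per probe set and array of Affymetrix MG-U74B, made by the authors with GCRMA in R 2.4.1, per the submitters' processing notes. No source used here gives the GCRMA settings. Of 12477 table entries 66 Affymetrix controls were left out. Of 6334 probe sets tested 5925 had 1 symbol, 72 several and 337 none, by the platform annotation.

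A model with 1 mean per group over all 12 arrays was fitted with limma 3.58.1 in R 4.3.3 (lmFit, eBayes with trend), with Benjamini-Hochberg adjustment over all probe sets tested and a threshold of 0.05. P-values measure the spread between pools. An alternative had the replicate number as a block. The deviations of same-numbered arrays from their group means correlated for all 18 pairs, with r from 0.361 to 0.881, so that the numbers pair the arrays, as judged from the data.

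Named were all probe sets that passed without or with the block, the 10 largest differences on each side among those with 1 symbol, an unadjusted p under 0.01, no overlap and 1 sign in all numbers, the 2 smallest p-values of each list, Creb1 and Crem. Other list members were picked as examples with their values in view. A gene of a list was represented by 1 probe set. Further probe sets of some named genes, Slc14a1, Plek, Tmem219, P2rx7, Trmt61b and Dnajb4 among them, are not described here. The members compared, the lists and the tests were chosen with earlier results of these data known. The calculations were tested on simulated data. Alternatives were scaling, the filter, the trend, the arrays fitted and leaving out arrays.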

Additional observations from a re-analysis of the deposited data

Results flagged for a closer look

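Kcnj9, an inwardly rectifying potassium channel subunit, differed by -0.29 after kainate, with lower values in all 3 labelled mutant arrays within their numbers, and by 0.06 with saline, with higher values in all 3. The change of the genotype difference with kainate was -0.35, with an unadjusted p of 0.0441 and an adjusted p of 1.00 (limma interaction test), or 0.553 with the block, so it did not pass.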

How the results depend on the processing

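The count of 4 probe sets became 7 with the replicate number as a block, 8 with the block and quantile normalization, 12 with numbers 2 and 3 alone, and 0 with the 6 kainate arrays alone, also with the block (limma). Leaving out 1 array gave 1 to 5, or 7 to 12 with the block (a check added with the data in view). Spty2d1 passed without each of the 12 arrays, Dusp4 in 8, Ccdc86 in 7 and Nbdy in 4 of these fits. With the block and 1 kainate array left out, these 4 and Tspyl3 passed in 6 of 6, Zcchc18 in 4 and Tmem200a in 0. Non-overlapping probe sets, likewise added, were 309 lower after quantile normalization, and 406 higher and 153 lower after centring. The interaction gave 0 in every alternative run. Without 1 array, the difference of Gria3, a glutamate receptor subunit (0.13), ranged from -0.015, without labelled mutant kainate array 1, to 0.28. That of Bpgm, the 1 blood marker (0.11), ranged from -0.042 to 0.39, and was below 0 without control kainate array 1 or labelled mutant kainate array 2 or 3. Neither passed in any of these fits. With saline the block also brought Fahd2a and Bcl11b past the threshold (adjusted p = 0.0423 each, limma), and in the kainate response Ciart in labelled mutant arrays (0.0407) and Nr4a3 in controls (0.0318). For the genotype difference after kainate the block changed no call of a named gene other than Tspyl3, Tmem200a and Zcchc18. With 3 arrays a group, the number of arrays limits the precision, and dim probe sets near 4 are least certain.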
